A study of Drosophila melanogaster with 9 samples.

Results

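A pair of Drosophila melanogaster lines that express the same transgene under different drivers were set against each other: a glial line, repo>Dube3a, against a neuronal line, elav>Dube3a. The comparison takes 6 of the 9 RNA sequencing libraries in the series, 3 from each line, chosen by the driver named in the column headings of the count table. It bears on which transcripts differ between heads or brains in which Dube3a is driven in glia and those in which it is driven in neurons. All genes were examined. Counts of RefSeq transcripts were summed per gene symbol, which gave 15413 gene entries, of which 11430 had enough counts to be tested and 3983 did not.

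The glial flies carried repo-GAL4 and UAS-Dube3a, the neuronal flies elav-GAL4 (headed C155) and UAS-Dube3a, and the control flies UAS-Dube3a with no driver, so all 9 libraries carried the transgene. Flies were kept at 25 degrees C and, per the labels, were 3 to 5 days old. The labels name brain as the material, whereas the design text has RNA taken from pools of 15 to 25 heads, and the sex of the flies is not given. There was no driver-only library, and the lines differ in driver insertion, so effects of the driver, its insertion, the genetic background and Dube3a cannot be told apart. The labels do not say that the 3 libraries of a line came from separate crosses, so p-values measure the spread among these samples, which may be technical.

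Dube3a, listed as Ube3a, encodes the fly counterpart of human UBE3A, a ubiquitin ligase that tags proteins for degradation by the proteasome and whose loss or gain in people is tied to Angelman syndrome and to autism. In the GAL4/UAS system a yeast activator made in chosen cells turns on a transgene placed behind UAS sites, and repo and elav are the standard drivers for nearly all glia and for neurons. Fly glia include astrocyte-like, cortex, ensheathing and blood-brain barrier types, which take up transmitters, buffer ions, wrap neurons and seal the brain from the haemolymph. RNA of whole heads or brains mixes all cell types, so fewer cells of a type and less RNA per cell cannot be told apart.

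Library totals were 60322417, 39205825 and 38070711 counts in the glial line, against 41080491, 40461345 and 36100125 counts in the neuronal line. The median gene had an SD of log2 CPM of 0.249 among glial and 0.231 among neuronal libraries, where CPM is the count per 1e+06 TMM-scaled counts. Transcripts of other head tissues were plentiful. Summed over 45 eye and phototransduction genes the level was 64200 to 88500 CPM in the glial line and 64100 to 69400 CPM in the neuronal line, and over 39 fat body and yolk genes it was 60100 to 180000 CPM and 70300 to 91800 CPM. Digestive gut transcripts, 43 genes, summed to 3450 to 78400 CPM in glial libraries and 13900 to 84600 CPM in neuronal libraries. Glial 2 and neuronal 1 were the gut-poor libraries. In a principal component analysis of the 6 libraries the first axis, with 35.3% of the variance, placed the glial libraries at 2.5, 61.1 and 18.8 and the neuronal libraries at -23.6, -28.2 and -30.6, so the lines separated while glial 2 stood apart.

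The targeted gene was checked first. Ube3a, on arm 3L, had 220, 189 and 219 CPM in the glial libraries, against 72.8, 61.5 and 76.9 CPM in the neuronal libraries; the control libraries had 30.6, 33.8 and 39.6 CPM. Every glial library lay above every neuronal library, and every neuronal library above every control library. The labels call for both driver lines to lie above the driverless control and give no order between the lines. Ube3a was 2.97-fold higher in the glial line (log2 fold change 1.57 ± 0.14, adjusted p = 0.00063). The white gene w, an eye pigment transporter whose mini-white copy commonly marks inserted transgenes, had 154, 172 and 190 CPM in the glial line, against 52.6, 65.2 and 61 CPM in the neuronal line (1.53 ± 0.12, adjusted p = 0.00057). The genes that give the drivers their specificity were not called. The neuronal RNA-binding protein gene elav had 63.9, 71.9 and 60.5 CPM in the glial line, against 79.2, 82.5 and 85.9 CPM in the neuronal line (-0.33 ± 0.10, adjusted p = 0.13). The glial transcription factor gene repo had 29.7, 43.8 and 39.3 CPM, against 40.1, 64 and 40.8 CPM (-0.36 ± 0.21, adjusted p = 0.42). The lines did not overlap in elav and did in repo.

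**Figure D1:**
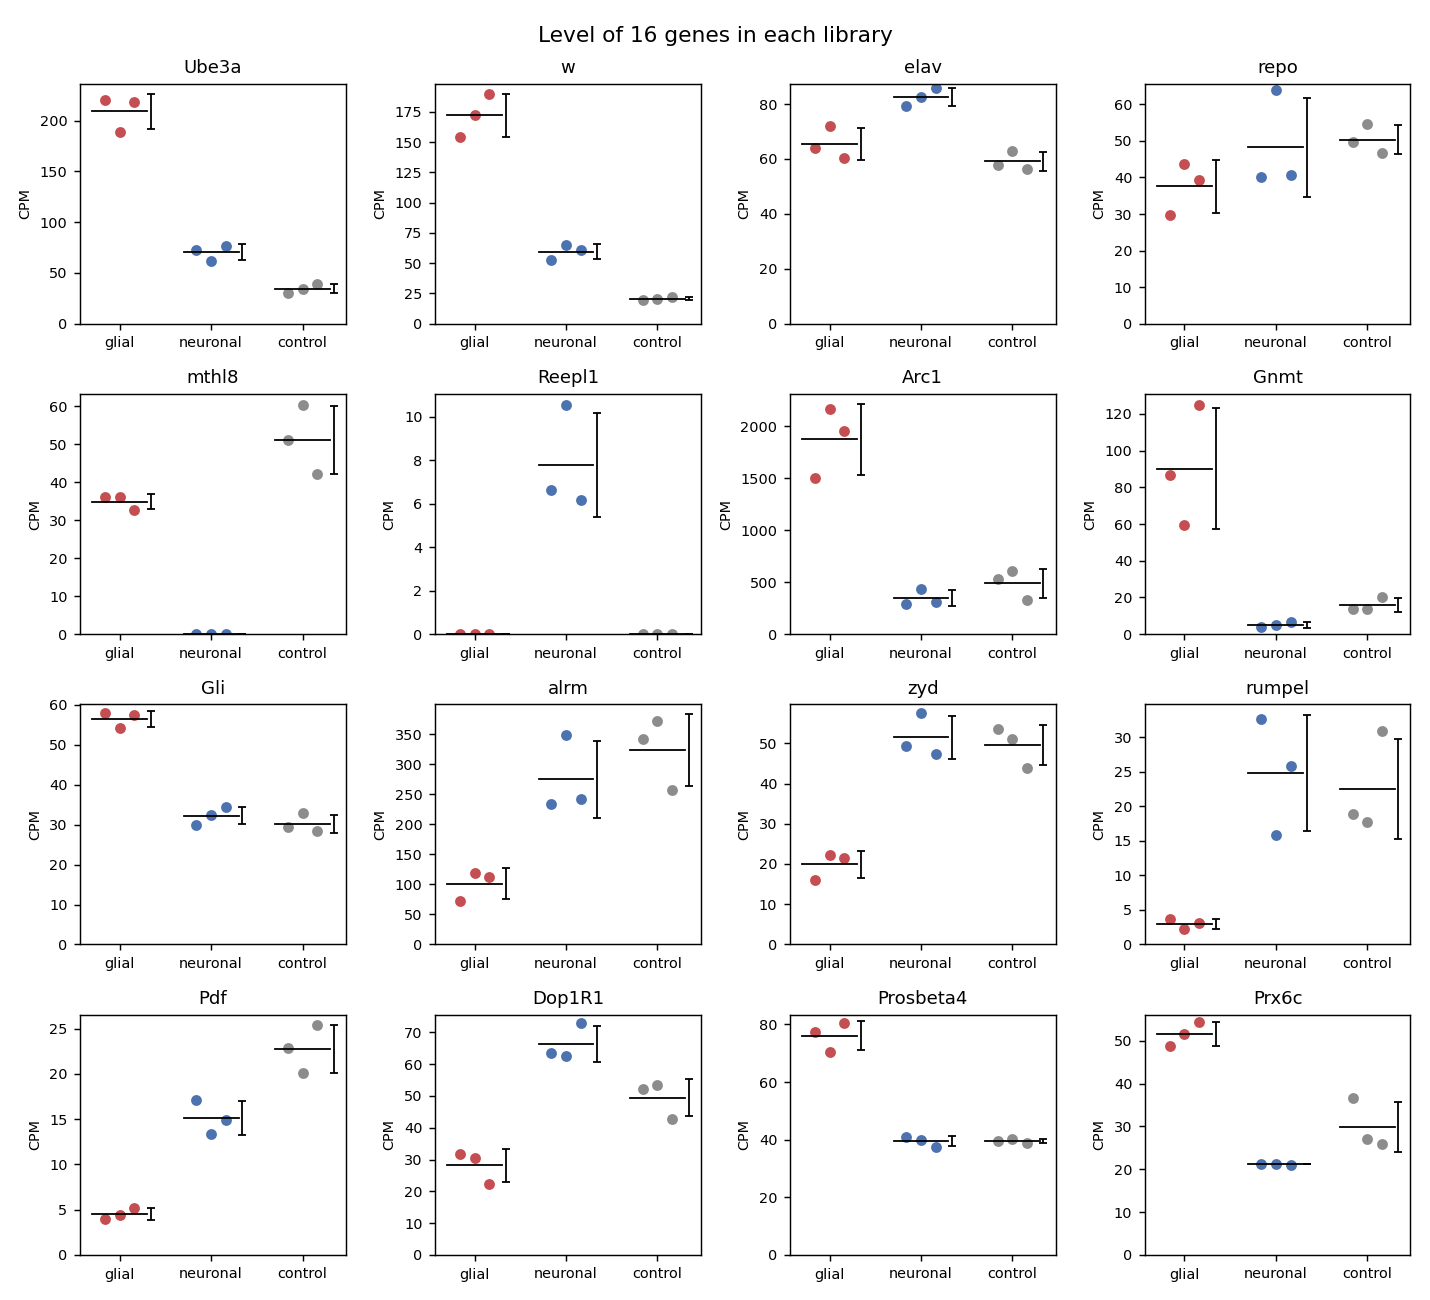
CPM (linear axis from 0) of 16 genes in each library of the glial line, the neuronal line and the control; points are libraries, horizontal lines means and bars SD (n = 3 each). Ube3a stands at 189 to 220 CPM in glial libraries and 61.5 to 76.9 CPM in neuronal libraries, while Reepl1 has counts in the neuronal libraries alone among these 9.

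Of the 11430 genes tested, 422 (3.69%) were called at an adjusted p under 0.05, edgeR's quasi-likelihood test with Benjamini-Hochberg adjustment. In the glial line 231 (2.02%) were higher and 191 (1.67%) lower, and 130 of the higher and 94 of the lower genes differed at least 2-fold. The median log2 fold change over all genes was 0.01. An unadjusted p under 0.05 in this test was reached by 2077 of the 11430 genes, the background for such counts in the lists below. In all 422 the CPM of the lines did not overlap, against 22.7% of all genes tested. The number of calls depended on single libraries. It was 392, 297 and 177 without glial 1, 2 and 3, 154, 207 and 193 without neuronal 1, 2 and 3, and 262, 310 and 382 without control 1, 2 and 3. Of the 422 calls, 128 were kept in all 9 of these fits, and 80 (38 higher, 42 lower) in all 18 settings tried. Unless a loss is stated, each gene described below as higher or lower is one of those 80. A loss "in the gut-balanced fit" means without the gut-poor libraries glial 2 and neuronal 1 together, where 112 calls were made from 2 libraries a side. The name covers the 2 lines only, since all 3 control libraries, gut-poor control 1 and 3 among them, stayed in this fit.

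**Figure D2:**
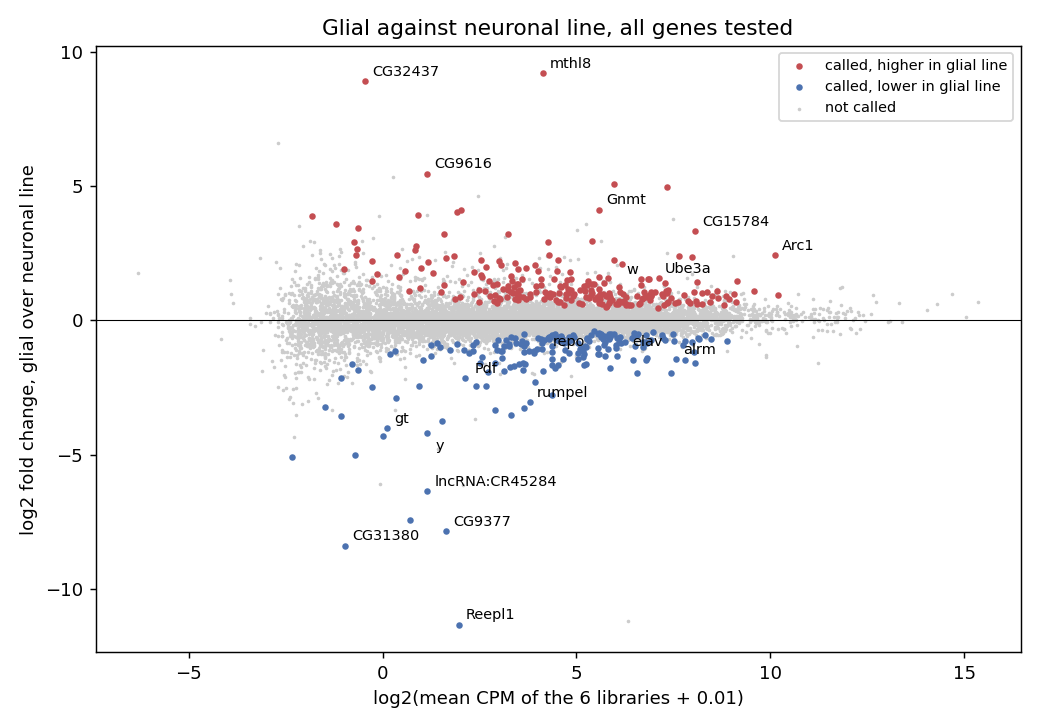
Log2 fold change of the glial over the neuronal line (vertical) against log2 of the mean CPM of the 6 libraries plus 0.01 (horizontal) for the 11430 genes tested; coloured points are the 231 genes called higher and 191 called lower in the glial line. The largest called differences, mthl8, CG32437, Reepl1 and CG31380, are genes at or near 0 in 1 of the lines, so their plotted size depends on the prior count.

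Several genes were almost absent from 1 line. The methuselah-like G protein-coupled receptor gene mthl8, on arm 3L, had 36.1, 36 and 32.6 CPM in the glial libraries, against 0.021, 0.0512 and 0.107 CPM in the neuronal libraries, which is 1, 2 and 4 counts. The control averaged 51.2 CPM, so it was the neuronal line that stood apart (log2 fold change 9.19 ± 0.34, adjusted p = 5.6e-06). Reepl1, on the X, a gene of the REEP family of endoplasmic reticulum proteins, had 0 counts in all 3 glial and all 3 control libraries, against 316, 411 and 232 counts in the neuronal libraries. Set against a floor of 3 counts over the glial libraries, it was at least 343-fold lower in the glial line. CG31380 had 0 counts in the glial line, against 48, 32 and 45 in the neuronal line and 22, 15 and 39 in the control, at least 44.7-fold lower.

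CG9377 showed 0, 0 and 3 counts in the glial libraries, against 251, 252 and 248 in the neuronal libraries and 501, 394 and 566 in the control. Its neuronal to glial ratio was 268 (95% exact interval 91.5 to 1300, counting error only). On arm 2L, 2 neighbours of the acetylcholine receptor gene nAChRalpha5 had most of their counts in the neuronal line. The long noncoding RNA lncRNA:CR45284 had 0.0762, 0.0545 and 0 CPM in the glial line, against 4.45, 3.63 and 5.09 CPM in the neuronal line and a mean of 0.0905 CPM in the control. CG18095 had 0, 0 and 2 counts in the glial line, against 162, 88 and 150 in the neuronal line and 0, 0 and 4 in the control. Its ratio was 214 (59 to 1780), and its call was lost in the gut-balanced fit (adjusted p = 0.0776). CG32437 went the other way, with 129, 34 and 44 counts in the glial line and 0 in every neuronal and control library, at least 64.4-fold higher, a call lost without glial 3 (adjusted p = 0.0667), in the gut-balanced fit (0.0776) and with a replicate block (0.0831).

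Further genes at low level differed. The pigmentation gene yellow (y) had 0.137, 0.327 and 0.226 CPM in the glial libraries, against 3.65, 4.48 and 4.34 CPM in the neuronal libraries (-4.21 ± 0.37, adjusted p = 0.00059). The embryonic gap gene giant (gt), a transcription factor, had 0.213, 0.0545 and 0.0646 CPM, against 1.93, 2.4 and 1.81 CPM (-4.02 ± 0.48, adjusted p = 0.0029). Both were near the neuronal level in the control, at 2.9 and 2.06 CPM. CG9616 had 4.15, 3.16 and 5.69 CPM in the glial line, against 0.126, 0.0767 and 0.0799 CPM in the neuronal line (5.46 ± 0.39, adjusted p = 0.00045), with the control between them at 1.12 CPM. Among well expressed genes, CG15784, an X-linked gene with no descriptive name, had 439, 563 and 452 CPM in the glial line, against 43.6, 46.7 and 54.6 CPM in the neuronal line (3.33 ± 0.15, adjusted p = 1.7e-05). Its control mean of 45.1 CPM was that of the neuronal line.

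Glial genes moved both ways. Of 41 glial markers, 2 were called higher and 6 lower in the glial line, with a median log2 fold change of -0.02. Their summed level was 5770 to 7420 CPM in the glial line and 6600 to 7810 CPM in the neuronal line, so the list as a whole overlapped. The shares of the list called were 4.88% higher and 14.6% lower, against 2.02% and 1.67% of all genes. The 6 lower genes were alrm, zyd, Rh50, wrapper, nrv2 and e, and the 2 higher ones the blood-brain barrier genes Gli and moody. The number lower was 6, 6 and 4 without glial 1, 2 and 3, 3, 3 and 4 without neuronal 1, 2 and 3, and 6 without each control library. The number higher was 3 without glial 1, 2 without control 3 and 1 without each other library.

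The astrocyte gene alrm, a leucine-rich repeat protein gene used to mark astrocyte-like glia, had 71.8, 120 and 112 CPM in the glial libraries, against 234, 349 and 242 CPM in the neuronal libraries. It was 2.72-fold lower (-1.44 ± 0.25, adjusted p = 0.015), a call lost without glial 3 (adjusted p = 0.057) and in the gut-balanced fit (0.0675). The cortex glia exchanger gene zyd had 16.1, 22.2 and 21.4 CPM, against 49.4, 57.6 and 47.3 CPM (-1.37 ± 0.15, adjusted p = 0.0023). The Rhesus-type ammonium transporter gene Rh50 was lower by less (-0.94 ± 0.13, adjusted p = 0.005; gut-balanced fit 0.0634). The lines did not overlap in any of the 3. For wrapper, an immunoglobulin-family gene of glia that ensheath neurons, the value was -0.81 ± 0.14 (adjusted p = 0.016; lost without neuronal 1 or 2, adjusted p = 0.0558 to 0.0594, and in the gut-balanced fit, 0.107). For nrv2, a beta subunit gene of the sodium pump in glia, it was -0.76 ± 0.14 (adjusted p = 0.02). The nrv2 call was lost without glial 3 or any neuronal library (adjusted p = 0.0547 to 0.0823) and in the gut-balanced fit (0.115).

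On the side of the blood-brain barrier, Gli, a gene of septate junctions at contacts between 3 cells, had 58, 54.2 and 57.3 CPM in the glial libraries, against 30, 32.3 and 34.3 CPM in the neuronal libraries (0.81 ± 0.10, adjusted p = 0.0039). This call was lost with library totals in place of TMM (adjusted p = 0.0593) and in the gut-balanced fit (0.0542). The barrier receptor gene moody had 146, 264 and 242 CPM, against 83.4, 124 and 97 CPM (1.10 ± 0.24, adjusted p = 0.039). Its call was lost without glial 2, glial 3, any neuronal library, control 1 or control 2 (adjusted p = 0.0611 to 0.141) and in the gut-balanced fit (0.246). The organic anion transporter gene Oatp58Dc of the same barrier was lower, at 16.9, 18.8 and 14.1 CPM against 38.2, 35.6 and 33.3 CPM (-1.10 ± 0.14, adjusted p = 0.0039). Of 31 septate junction genes 3 were higher (9.68%, against 2.02% of all genes) and 1 lower (3.23%, against 1.67%). The number higher was 1 without glial 2, glial 3, any neuronal library, control 1 or control 2, and the number lower was 0 without glial 3 or any neuronal library. Their median was 0.17 (-0.01 with library totals, which is 0.14 relative to the median of all genes), while their summed level, 5460 to 5700 CPM in the glial line and 6150 to 6250 CPM in the neuronal line, went the other way.

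Further genes with known glial roles, picked out after their values were seen, were among the larger decreases. The transporter gene rumpel, a solute carrier of ensheathing glia, had 3.71, 2.21 and 3.1 CPM in the glial line, against 32.6, 15.9 and 25.9 CPM in the neuronal line (-3.04 ± 0.34, adjusted p = 0.0024). Its relative bumpel was lower too (-1.21 ± 0.20, adjusted p = 0.013; lost without neuronal 3, adjusted p = 0.0527, and in the gut-balanced fit, 0.115). The secreted glycoprotein gene ana, which glia use in the larval brain to hold neural stem cells at rest, had 4.32, 5.48 and 5.66 CPM, against 25.8, 27.4 and 23.1 CPM (-2.31 ± 0.16, adjusted p = 0.00045). Csas, the CMP-sialic acid synthase gene, had 3.57, 7.06 and 5.4 CPM, against 28.8, 53.5 and 26.3 CPM (-2.77 ± 0.34, adjusted p = 0.0033). In all 4 the control means, 22.5, 39.5, 26.2 and 39.8 CPM, lay near the neuronal level.

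Among genes that handle beta-alanine, which glia of the visual system couple to histamine and dopamine, 4 were examined and 3 were called lower. The set was also chosen after values were seen, so this count cannot stand for the pathway. Balat, a beta-alanine transporter gene, had 1.83, 1.61 and 2.52 CPM in the glial libraries, against 11.6, 9.08 and 11.3 CPM in the neuronal libraries (-2.43 ± 0.22, adjusted p = 0.00079), though 98.5% of its exon bases are shared with an antisense RNA. The aspartate decarboxylase gene b, which makes beta-alanine, had 8.78, 9.16 and 15.6 CPM, against 33.8, 38.9 and 32.4 CPM (-1.65 ± 0.22, adjusted p = 0.0051; gut-balanced fit 0.0664). The ligase gene e, ebony, had 91, 74.8 and 107 CPM, against 141, 157 and 157 CPM (-0.74 ± 0.14, adjusted p = 0.022), a call lost without glial 1 or any neuronal library (adjusted p = 0.0518 to 0.0821) and in the gut-balanced fit (0.0973). The hydrolase gene t, tan, which reverses the ebony step in photoreceptors, was not called (0.66 ± 0.20, adjusted p = 0.11).

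Some neuronal markers were lower by small amounts. Of 30 neuronal markers 28 had a negative log2 fold change, 6 were called lower and 0 higher, and the median was -0.41 (-0.55 with library totals, where the median of all genes was -0.15). Limma-voom also called 0 higher and DESeq2 called 1 higher, and 20 of the 30 markers had an unadjusted p under 0.05. Their summed level was 5950 to 6930 CPM in the glial line and 7640 to 8230 CPM in the neuronal line, with 6760 to 7070 CPM in the control, so the lines did not overlap, while the control range met the upper end of the glial range. The share of the 30 markers called lower was 20%, against 1.67% of all genes. The called genes were fne (-0.71 ± 0.13, adjusted p = 0.02), a neuronal RNA-binding protein gene, the synaptic genes Syx1A (-0.63 ± 0.11, 0.016), brp (-0.66 ± 0.13, 0.028) and nwk (-0.56 ± 0.12, 0.04), and the transmitter genes VGlut (-0.57 ± 0.10, 0.021) and ChAT (-0.51 ± 0.10, 0.03).

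All 6 calls were lost without any 1 neuronal library (adjusted p = 0.0527 to 0.136) and in the gut-balanced fit (0.0956 to 0.172). The number of neuronal markers called lower was 4, 3 and 1 without glial 1, 2 and 3, 0 without any 1 neuronal library, and 3, 4 and 5 without control 1, 2 and 3. Of 37 synaptic vesicle genes 3 were lower and 0 higher (8.11% lower, against 1.67% of all genes; median -0.32), and of 29 voltage-gated channel genes 1 was lower and 0 higher (3.45%, median -0.33). Of 44 neuropeptide precursor genes 1, Pdf, was lower and 0 higher (2.27%, median -0.18), and 13 had a positive log2 fold change. At an unadjusted p under 0.05 stood 19 vesicle, 17 channel and 9 neuropeptide genes, beside 2077 of all 11430 genes tested. DESeq2 called 9, 7 and 3 lower and 0, 0 and 1 higher, limma-voom 2, 1 and 1 lower and 0 higher. Synaptic vesicle genes summed to 7810 to 8880 CPM in the glial line and 9610 to 10500 CPM in the neuronal line, without overlap. The sums overlapped for channel genes, at 2360 to 3470 CPM in the glial line and 3440 to 3920 CPM in the neuronal line, and for neuropeptide precursors, at 5890 to 17200 CPM and 6360 to 9250 CPM.

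Some transmitter receptors were lower. Of 51 receptor genes 7 were called lower and 1 higher, 46 had a negative log2 fold change, and the median was -0.38. Summed, they reached 1260 to 1420 CPM in the glial line and 1730 to 1790 CPM in the neuronal line, with the control between at 1500 to 1560 CPM. The shares called were 13.7% lower and 1.96% higher, against 1.67% and 2.02% of all genes. Of the 10 subunit genes of nicotinic acetylcholine receptors, the main excitatory channels of the fly brain, 5 were called lower, 4 had negative values that were not called, and nAChRbeta3 was called higher. The 5 called lower ran from -0.63 ± 0.14 for nAChRalpha4 to -0.69 ± 0.11 for nAChRalpha5, with nAChRalpha1, nAChRalpha3 and nAChRbeta1 between them. All of these calls but that of nAChRalpha5 were lost without glial 3 or any 1 neuronal library (adjusted p = 0.0671 to 0.147). The same calls were lost in the gut-balanced fit (0.0956 to 0.196). The 4 not called ran from -0.37 ± 0.16 for nAChRalpha2 to -0.49 ± 0.11 for nAChRalpha7 (adjusted p = 0.051).

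The subunit gene nAChRalpha5 had 42.9, 48.7 and 38.7 CPM in the glial libraries, against 65.4, 74.9 and 70.4 CPM in the neuronal libraries, without overlap (adjusted p = 0.013; lost without glial 3 or neuronal 3, 0.0537 to 0.057). The apparent exception, nAChRbeta3, had 28.4, 43.5 and 46.9 CPM, against 16.5, 17.3 and 19.9 CPM (1.14 ± 0.21, adjusted p = 0.019). Its call was lost without glial 2, glial 3 or any neuronal library (adjusted p = 0.0569 to 0.0834) and in the gut-balanced fit (0.171). All of its exon bases are shared with the stress-induced gene Ets21C, so its reads cannot be told from those of Ets21C. The number of receptors called lower was 4, 4 and 1 without glial 1, 2 and 3, 2, 2 and 1 without neuronal 1, 2 and 3, and 4, 5 and 5 without control 1, 2 and 3. The call that held throughout was Dop1R1, the D1-like dopamine receptor gene, with 31.7, 30.6 and 22.2 CPM in the glial line, against 63.4, 62.6 and 73 CPM in the neuronal line (-1.24 ± 0.16, adjusted p = 0.0042).

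**Figure D3:**
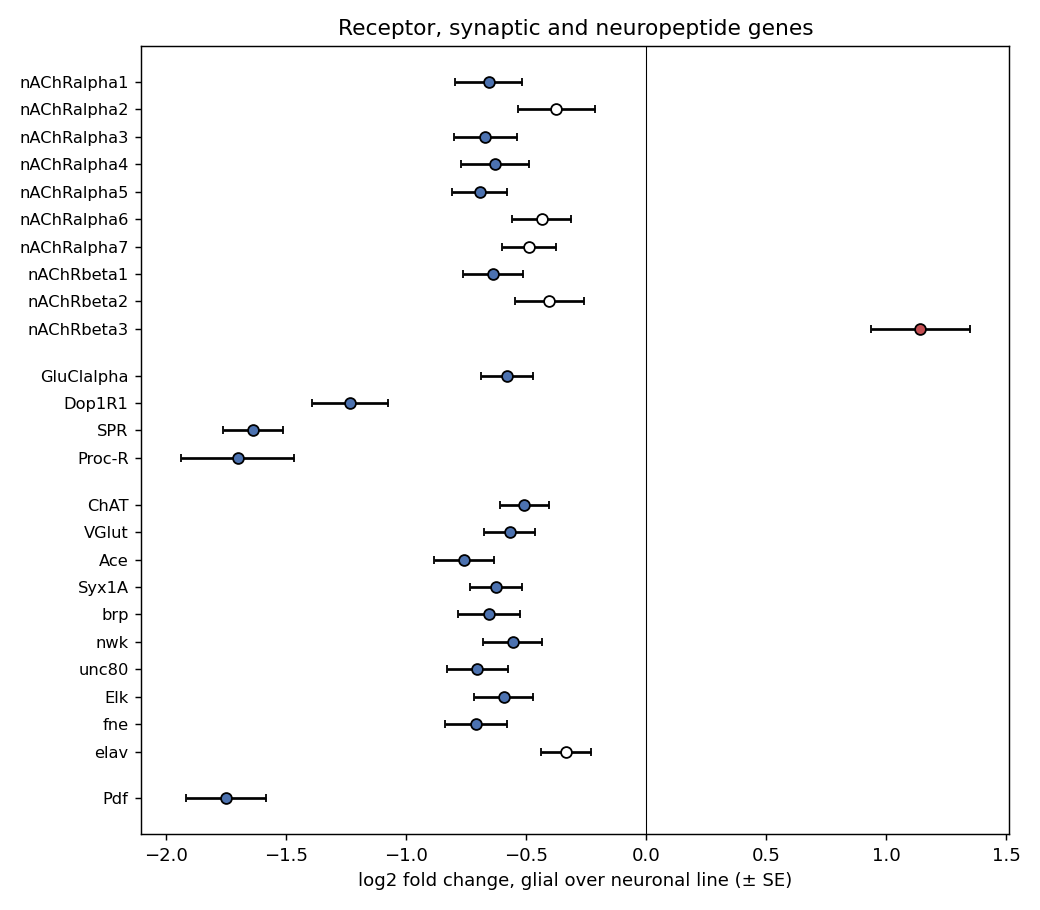
Log2 fold change ± SE (n = 3 libraries each) of the glial over the neuronal line for receptor, synaptic and neuropeptide genes; filled points were called and open points were not. All genes shown lie left of 0, at -1.75 (Pdf) to -0.33 (elav), except nAChRbeta3 at 1.14.

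Peptide signalling held larger differences in single genes. Pdf, the neuropeptide gene of the clock neurons that time activity, had 3.93, 4.39 and 5.17 CPM in the glial libraries, against 17.1, 13.4 and 14.9 CPM in the neuronal libraries, 3.37-fold lower (-1.75 ± 0.17, adjusted p = 0.00089). It was also the 1 called gene among 20 clock genes (5% lower, against 1.67% of all genes). Receptor genes that were not in the list, named after their values were seen, included SPR, the receptor of sex peptide and of myoinhibitory peptides, with 5.12, 5.26 and 6.21 CPM, against 17.5, 17.5 and 16.6 CPM (-1.64 ± 0.13, adjusted p = 0.00047). The proctolin receptor gene Proc-R had 4.89, 4.66 and 5.3 CPM, against 13.8, 21.4 and 13.2 CPM (-1.70 ± 0.24, adjusted p = 0.0059; gut-balanced fit 0.0589). In none of the 3 did the lines overlap. Channel genes with a clear difference were wtrw, a TRP channel of humidity sensing (-1.32 ± 0.11, adjusted p = 0.00057), and the inward rectifier Irk3 (-1.16 ± 0.14, adjusted p = 0.0033; gut-balanced fit 0.0589).

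Some activity-regulated genes were higher. Of 24 activity-regulated genes 5 were called higher and 0 lower with edgeR (0 lower also with DESeq2 and limma-voom; 7 of the 24 at an unadjusted p under 0.05), and the median was 0.31. The share called higher was 20.8%, against 2.02% of all genes. The sums overlapped, at 4110 to 9700 CPM in the glial line and 2300 to 7630 CPM in the neuronal line. The called genes were Arc1, Arc2, Gadd45, Ets21C and Mmp1. Arc1, whose Gag-like protein forms capsids that carry its own mRNA across synapses, had 1500, 2160 and 1960 CPM in the glial libraries, against 293, 437 and 309 CPM in the neuronal libraries and a mean of 487 CPM in the control. It was 5.4-fold higher (2.43 ± 0.28, adjusted p = 0.0024). Its paralogue Arc2 had 65.5, 81 and 70.1 CPM, against 23, 26.4 and 21.6 CPM (1.61 ± 0.14, adjusted p = 0.00057). For both, every glial library lay above all 6 others.

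Gadd45, a stress-induced regulator, had 36.2, 44.5 and 31.8 CPM in the glial libraries, against 12.6, 19.7 and 12.9 CPM in the neuronal libraries (1.32 ± 0.20, adjusted p = 0.0091; gut-balanced fit 0.1). Ets21C, a transcription factor gene downstream of JNK signalling, was higher by 0.98 ± 0.16 (adjusted p = 0.014). Its call was lost without glial 3, neuronal 1 or neuronal 3 (adjusted p = 0.0624 to 0.0671) and in the gut-balanced fit (0.139). Of its exon bases 28.3% are shared with nAChRbeta3, so the calls of both genes may not be separate results. The matrix metalloproteinase gene Mmp1 was higher by 0.93 ± 0.17 (adjusted p = 0.022). The Mmp1 call was lost without glial 1, glial 3 or any neuronal library (adjusted p = 0.0546 to 0.0913) and in the gut-balanced fit (0.128). The number of the list called was 4, 5 and 3 without glial 1, 2 and 3, 3, 4 and 3 without neuronal 1, 2 and 3, and 5 without each control library.

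Calls among immune, hemocyte and fat body genes were all higher with edgeR, though most members were not called. Of 54 humoral immune genes 11 were called higher, of 26 hemocyte markers 10 and of 39 fat body and yolk genes 10, and in each list 0 were lower with edgeR, 26, 17 and 24 having an unadjusted p under 0.05. The shares higher were 20.4%, 38.5% and 25.6%, against 2.02% of all genes. DESeq2 called 1, 0 and 0 lower and limma-voom 0. The medians were 0.61, 0.74 and 0.64 (0.45, 0.56 and 0.46 with library totals). Summed immune genes reached 1620 to 2110 CPM in the glial line and 1140 to 1170 CPM in the neuronal line, without overlap. Hemocyte markers overlapped in their sums, at 6680 to 17600 CPM in the glial line and 5480 to 8490 CPM in the neuronal line. The control had 7830 to 10300 CPM. Such sums weigh the most abundant members most. As a mean log2 CPM per gene, hemocyte markers did not overlap, at 6.05 or above in each glial library against 5.55 to 5.63 in the neuronal libraries. Fat body and yolk genes overlapped in their sums, at 60100, 170000 and 180000 CPM in glial 1, 2 and 3 and 70300 to 91800 CPM in the neuronal line. By this sum glial 1 lay below every neuronal library. Averaged per gene, they did not overlap, at 7.57, 7.22 and 7.67 in glial 1, 2 and 3 against 6.61 to 6.83. Of 17 sex-linked expression markers 4 were higher and 0 lower (23.5% higher, against 2.02% of all genes), with a median of 0.7. The number higher was 4, 2 and 0 without glial 1, 2 and 3 and 0 without any 1 neuronal library. It was 2, 3 and 2 without control 1, 2 and 3, and 0 with library totals or in the gut-balanced fit. The called marker CG13965 is also in the fat body list, so these lists are not separate results. Whether the lines differ in sex was not tested. The part of hemocytes and fat body in the samples was not tested.

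These list counts depended on single libraries. Immune calls numbered 8, 10 and 4 without glial 1, 2 and 3, 3, 3 and 2 without neuronal 1, 2 and 3, and 8, 8 and 11 without control 1, 2 and 3. Hemocyte calls numbered 11, 8 and 3, 2, 5 and 5, and 7, 7 and 9 in the same order, and fat body calls 10, 6 and 3, 2, 4 and 4, and 6, 6 and 6.

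Members that held in every setting were BomBc2 and GNBP-like3 of the immune list, Sr-CI and LanB2 of the hemocyte list and Gnmt of the fat body list. BomBc2, a Bomanin peptide gene of the Toll response, had 182, 132 and 142 CPM in the glial libraries, against 50.1, 42.5 and 63.5 CPM in the neuronal libraries (1.55 ± 0.18, adjusted p = 0.0025). GNBP-like3, a gene related to microbial glucan-binding proteins, had 26.6, 6.08 and 18.7 CPM, against 2.18, 1.64 and 1.65 CPM (3.23 ± 0.47, adjusted p = 0.0072). Glial 2, the gut-poor library, had the lowest glial value of GNBP-like3 and still lay above all neuronal libraries. The scavenger receptor gene Sr-CI had 12.1, 19.2 and 14.2 CPM, against 4.85, 4.76 and 4.93 CPM (1.64 ± 0.18, adjusted p = 0.0024), and LanB2, the laminin gamma chain gene of basement membranes, 66.2, 68.9 and 81.5 CPM, against 41.8, 38.1 and 36.6 CPM (0.89 ± 0.12, adjusted p = 0.0049).

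Gnmt, glycine N-methyltransferase, which consumes S-adenosylmethionine in the fat body, had 86.6, 59.3 and 125 CPM in the glial libraries, against 3.7, 4.96 and 6.84 CPM in the neuronal libraries. It was 17.5-fold higher (4.13 ± 0.35, adjusted p = 0.00057), with a control mean of 15.8 CPM. The stress peptide gene TotA, a Turandot gene induced through JAK-STAT signalling, had 18.2, 23.1 and 59.7 CPM, against 6.13, 3.68 and 3.62 CPM (2.91 ± 0.47, adjusted p = 0.012; lost without neuronal 2 or 3, 0.0595 to 0.0598). The phenoloxidase gene PPO1 of crystal cells was higher by 1.56 ± 0.26 (adjusted p = 0.015; lost without glial 3, neuronal 1 or neuronal 2, 0.0636 to 0.0729, and in the gut-balanced fit, 0.14). The larval storage protein gene Lsp2 varied most, at 161, 206 and 577 CPM, against 20.8, 1.3 and 8.18 CPM (4.96 ± 1.06, adjusted p = 0.037). Its call was lost without glial 2 or 3, any neuronal library or control 2 (adjusted p = 0.053 to 0.14) and in the gut-balanced fit (0.0956). Of its exon bases 84.6% are shared with an antisense RNA.

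**Figure D4:**
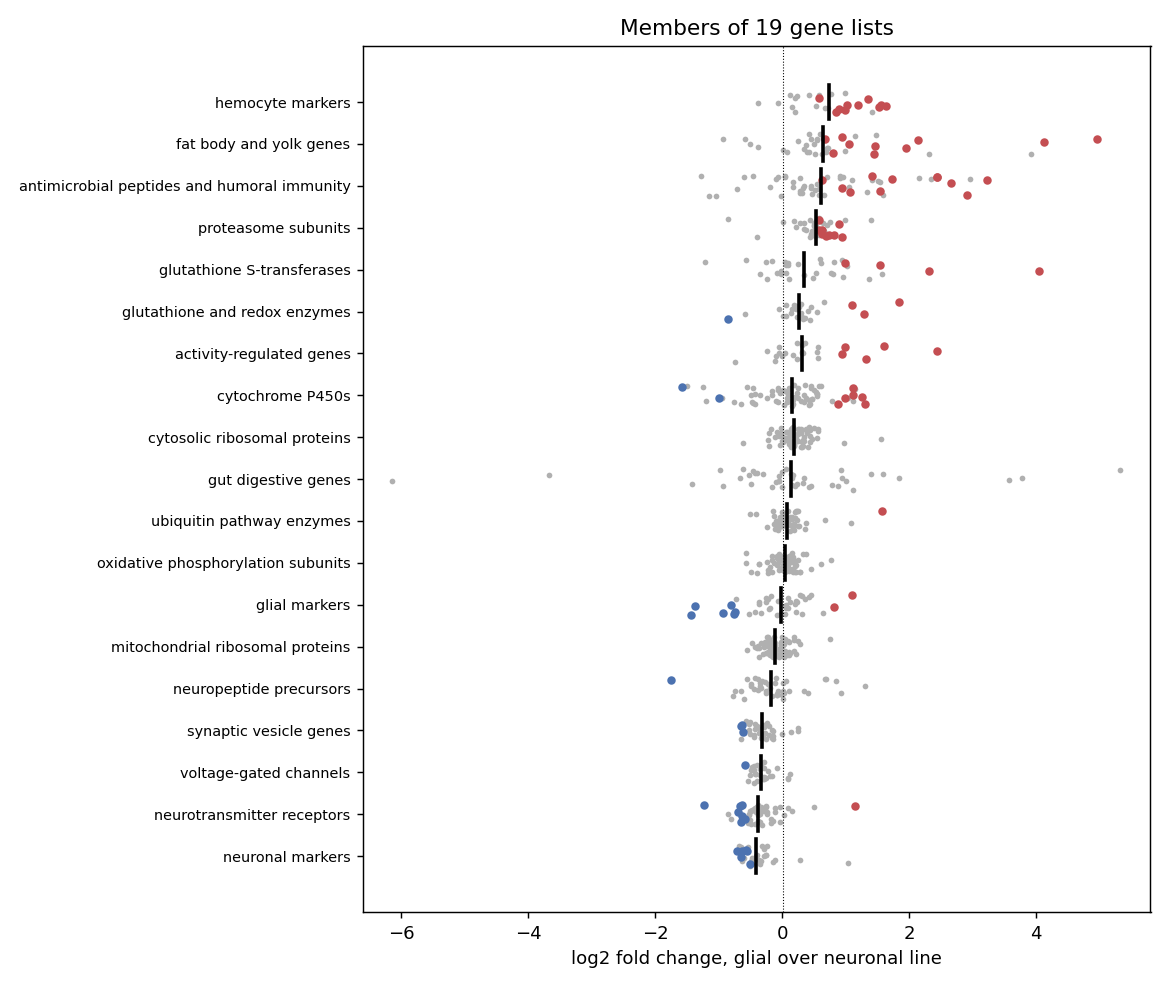
Log2 fold change of the glial over the neuronal line for the tested members of 19 gene lists; grey points were not called, red points were called higher and blue points called lower in the glial line, thick bars are list medians and the dotted line the median of all genes, 0.01. Medians run from 0.74 for hemocyte markers to -0.41 for neuronal markers.

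Some enzymes that act on reactive and foreign compounds were called, in both directions. Of 27 glutathione and redox enzymes 3 were called higher and 1 lower (median 0.27). The shares were 11.1% higher and 3.7% lower, against 2.02% and 1.67% of all genes. The peroxiredoxin gene Prx6c had 48.7, 51.5 and 54.4 CPM in the glial libraries, against 21.3, 21.2 and 21.1 CPM in the neuronal libraries (1.28 ± 0.14, adjusted p = 0.0023). Its relative Prx6b had 27.1, 34.1 and 44 CPM, against 9.79, 9.9 and 9.61 CPM (1.84 ± 0.22, adjusted p = 0.0029), while the control, at 51.7 CPM, lay above both lines. Men, the malic enzyme gene that supplies NADPH, had 903, 982 and 1220 CPM, against 520, 427 and 500 CPM (1.10 ± 0.17, adjusted p = 0.0094; gut-balanced fit 0.0791). The extracellular superoxide dismutase gene Sod3 was the lower member, at 76.7, 80.7 and 84.4 CPM, against 159, 131 and 145 CPM (-0.85 ± 0.13, adjusted p = 0.0094; gut-balanced fit 0.106).

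Glutathione S-transferases, which conjugate toxic compounds, had 4 of 33 members called higher and 0 lower with edgeR (1 lower with DESeq2, 0 with limma-voom; 13 at an unadjusted p under 0.05), with a median of 0.34. GstD3 had 34.9, 46 and 47.7 CPM in the glial line, against 16.1, 15.2 and 13 CPM in the neuronal line (1.54 ± 0.15, adjusted p = 0.001), and GstD5 7.05, 7.63 and 6.53 CPM, against 0.252, 0.742 and 0.293 CPM (4.04 ± 0.52, adjusted p = 0.0042; gut-balanced fit 0.0589). GstD2 lies beside them and was higher as well (2.31 ± 0.42, adjusted p = 0.021). The GstD2 call was lost without glial 1, glial 3 or any neuronal library (adjusted p = 0.0531 to 0.0791) and in the gut-balanced fit (0.0749). The share of the list called higher was 12.1%, against 2.02% of all genes. Without glial 1, 2 and 3 there were 4, 4 and 2 calls, without neuronal 1, 2 and 3 there were 2, 3 and 2, and without each control library 4. Sequences of the GstD cluster are alike, so reads may have been split between its genes.

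Cytochrome P450 genes went both ways, with 6 of 74 higher and 2 lower and a median of 0.15 (-0.02 with library totals, which is 0.13 relative to the median of all genes). The shares were 8.11% higher and 2.7% lower, against 2.02% and 1.67% of all genes. Cyp6a20, a gene tied to male aggression, had 144, 144 and 145 CPM in the glial libraries, against 66, 58.3 and 51.1 CPM in the neuronal libraries (1.30 ± 0.15, adjusted p = 0.0025), with the control mean at 130 CPM. The DDT resistance gene Cyp6g1 was higher by 1.11 ± 0.16 (adjusted p = 0.006; library totals 0.0748, gut-balanced fit 0.08). The lower member that held in every setting was Cyp4ac3, at 4.3, 3.65 and 3.36 CPM, against 13.7, 10.6 and 9.46 CPM (-1.57 ± 0.18, adjusted p = 0.0025). Its neighbour in the same cluster, Cyp4ac2, was called in the opposite direction (1.12 ± 0.20, adjusted p = 0.018). The Cyp4ac2 call was lost without glial 3 or any neuronal library (adjusted p = 0.0522 to 0.0758) and in the gut-balanced fit (0.101). The number higher was 5, 7 and 3 without glial 1, 2 and 3, 3 without any 1 neuronal library, and 5, 6 and 6 without control 1, 2 and 3; the number lower was 1 to 3.

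The proteasome, to which ubiquitin ligases deliver their substrates, held calls in the higher direction alone with edgeR, each a small difference. Of 41 subunit genes 39 had a positive log2 fold change, 9 were called higher and 0 lower with edgeR (0 also with DESeq2 and limma-voom), 26 had an unadjusted p under 0.05, and the median was 0.53 (0.41 with library totals). Summed, they reached 2190 to 2980 CPM in the glial line and 1670 to 1760 CPM in the neuronal line, without overlap, and 1780 to 1850 CPM in the control. The share of subunit genes called higher was 22%, against 2.02% of all genes. Prosbeta4, a subunit of the catalytic core ring, had 77.4, 70.4 and 80.3 CPM in the glial libraries, against 40.9, 39.8 and 37.6 CPM in the neuronal libraries (0.95 ± 0.09, adjusted p = 0.0012). Prosalpha6 was higher by 0.89 ± 0.14 (adjusted p = 0.0099; lost without neuronal 3, 0.0503, and with library totals, 0.0979). The other 7 were Rpt2, Rpt4, Rpn3, Prosalpha2, Prosalpha3, Prosalpha7 and Prosbeta1, at 0.58 to 0.81, each lost without neuronal 2 (adjusted p = 0.0588 to 0.133) among others.

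Proteasome calls numbered 4, 9 and 2 without glial 1, 2 and 3, 3, 2 and 2 without neuronal 1, 2 and 3, 5, 6 and 7 without control 1, 2 and 3, and 1 with library totals. The ubiquitin pathway itself did not move in the same way. Of 55 genes of ubiquitin activation, conjugation, ligation and removal, Ube3a was the 1 called in either direction, 6 had an unadjusted p under 0.05, and the median was 0.07 (-0.09 with library totals). The share higher, 1.82%, was near the 2.02% of all genes.

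One-carbon, nucleotide and growth genes were among the higher calls that held in every setting; these were grouped after their values were seen. Mthfs, a folate cycle enzyme gene, had 40.6, 29.6 and 49 CPM in the glial libraries, against 15, 11.9 and 14.8 CPM in the neuronal libraries (1.51 ± 0.20, adjusted p = 0.0043). RnrL, the large subunit of ribonucleotide reductase, had 12.5, 13.2 and 14.2 CPM, against 3.19, 2.66 and 3.76 CPM (2.05 ± 0.18, adjusted p = 0.00057). Ssrp, of the histone chaperone FACT, had 22.4, 23.3 and 20.7 CPM, against 9.62, 8.8 and 8.6 CPM (1.30 ± 0.12, adjusted p = 0.00089). The ribosome assembly factor gene eIF6 was higher by 1.17 ± 0.13 (adjusted p = 0.0023) and the retinol dehydrogenase gene Rdh1 by 2.06 ± 0.22 (adjusted p = 0.0019).

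In the opposite direction, eIF4EHP, a cap-binding repressor of translation, was lower (-1.06 ± 0.13, adjusted p = 0.0029), as were the transcription factor gene Sox21b (-1.06 ± 0.15, 0.0058) and nolo, a matrix protein gene of the ADAMTS-like family (-1.03 ± 0.12, 0.0024). Pu, GTP cyclohydrolase, which starts the synthesis of pteridine pigments and of the cofactor for dopamine and serotonin, had 164, 153 and 133 CPM in the glial libraries, against 263, 313 and 269 CPM in the neuronal libraries (-0.91 ± 0.13, adjusted p = 0.0061; gut-balanced fit 0.0613). Its control mean was 332 CPM.

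**Figure D5:**
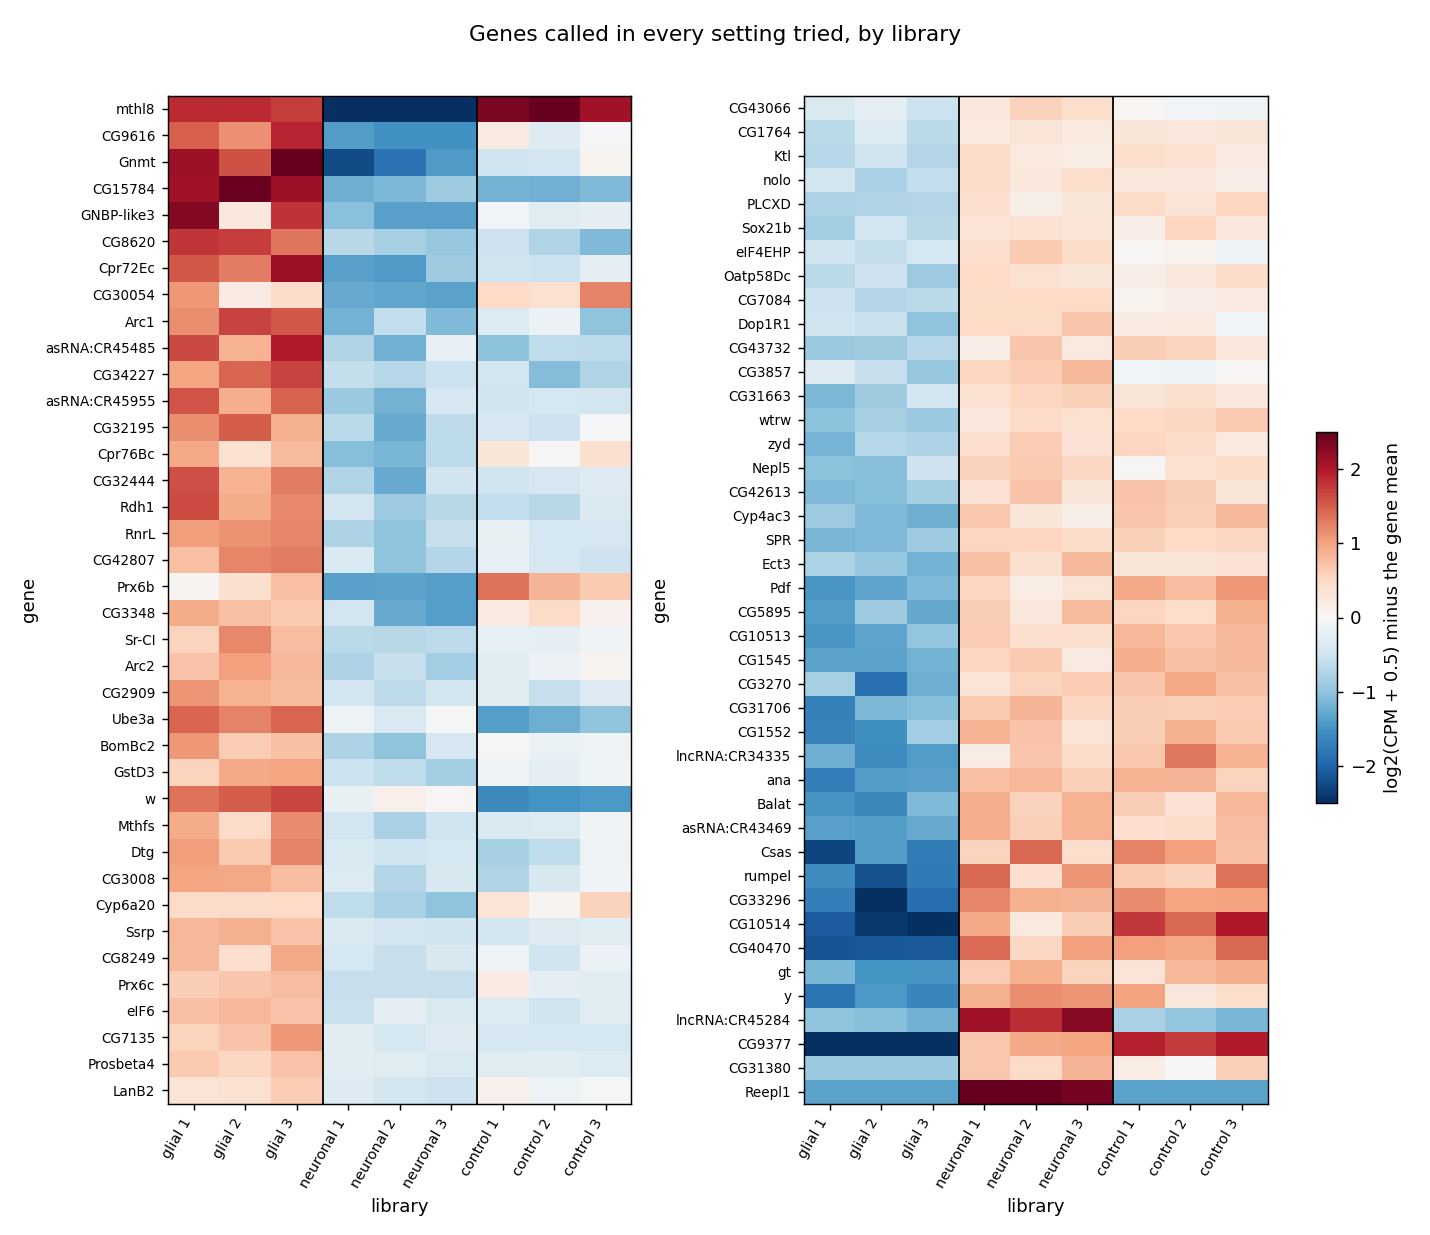
Log2(CPM + 0.5) minus the gene mean, by library, for the 80 genes called in all 18 settings, with the 38 higher genes in the left panel and the 42 lower genes in the right, ordered by log2 fold change. Within each gene the 3 glial columns contrast with the 3 neuronal columns, and for 69 of the 80 genes the control mean lies nearer to the neuronal mean.

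Called genes were spread over the chromosome arms at similar rates, 3.64% of those tested on X, 3.78% on 2L, 3.79% on 2R, 3.48% on 3L and 3.78% on 3R, and 1.14% of 88 genes on the fourth chromosome. Of 417 called genes on these arms, 67 lay next to a gene called in the same direction, and 7 runs of 3 adjacent genes were called alike. One was the GstD cluster, and another held CG18095, lncRNA:CR45284 and nAChRalpha5. A run on 3R held CG10513 (-1.78 ± 0.15, adjusted p = 0.00057), CG10514 (-3.35 ± 0.26, 0.00047) and CG11892 (-1.46 ± 0.27, 0.02). The CG11892 call was lost without any 1 glial library or neuronal 1 (adjusted p = 0.0534 to 0.0758) and in the gut-balanced fit (0.141). On the X a run joined Reepl1 to CG11699 and Kmn1, and another, higher, joined Had1, CG3679 and asRNA:CR45485. Some genes of a run overlap. Had1 shares 98.8% and asRNA:CR45485 84.5% of exon bases with other genes of their run, and CG11699 shares 96.8% with Kmn1 and an antisense RNA. In a further run, on 3R, CG43732 shares 100% of its exon bases with CG42613. Reads of such genes may be shared, so their calls are not separate results. Kmn1 and CG3679 were lost without glial 3 (adjusted p = 0.118 and 0.0611) or neuronal 1 (0.103 and 0.0671), among others, Had1 without neuronal 1 (0.0523) and CG11699 in the gut-balanced fit (0.115). Among the 25 tested genes on each side of elav, 1 was called, y, and around w, Ube3a and repo there were 1, 3 and 2. Each of these counts is out of 50 genes, where 3.69% of all genes tested were called. Whether neighbouring genes were called together more often than scattered ones was not tested.

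Lists of respiratory, ribosomal, gut and chemoreceptor genes held no calls. With edgeR, 0 of 68 oxidative phosphorylation genes (median 0.04; -0.15 with library totals), 0 of 83 cytosolic ribosomal protein genes (0.19) and 0 of 73 mitochondrial ribosomal protein genes (-0.11) were called, with 2, 5 and 3 at an unadjusted p under 0.05. The 43 gut genes (median 0.15) and 78 chemoreceptors (-0.31; with library totals -0.46) also had 0 called, with 5 and 6 at an unadjusted p under 0.05. Over these 5 lists DESeq2 called 0, 1, 0, 4 and 1 genes and limma-voom 0, 0, 0, 1 and 0. Cuticle proteins had 3 of 57 higher and 2 lower (5.26% and 3.51%, against 2.02% and 1.67% of all genes). Cpr72Ec led them, at 67.4, 55.8 and 102 CPM in the glial libraries, against 8.55, 8.16 and 12 CPM in the neuronal libraries (2.97 ± 0.25, adjusted p = 0.00057). Odorant-binding proteins had 2 of 31 higher and 3 lower (6.45% and 9.68%). Among the lower was Obp44a, at 95.6, 141 and 159 CPM, against 452, 420 and 327 CPM (-1.60 ± 0.21, adjusted p = 0.0042, and 0.057 in the gut-balanced fit). With 1 library left out, cuticle protein calls numbered 2 to 5 higher and 0 to 2 lower. Odorant-binding protein calls numbered 0 to 2 higher and 1 to 3 lower in the same fits.

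The driverless control lay nearer to the neuronal than to the glial mean, on the log2 scale, in 302 of the 422 called genes (71.6%), against 55.4% of all genes tested. In 285 of the 422 the control mean lay between the means of both lines, against 3714 of all 11430 genes tested, a smaller share. Called genes were picked for a gap between the lines, so the control can fall between their means more often for that reason alone. The control was nearer the neuronal line in 70.6% of the higher and 72.8% of the lower genes. The control was nearer to the glial mean in 120 called genes, among them mthl8, Reepl1, Cyp6a20 and Prx6b.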

How the data were processed

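The authors deposited raw counts, whole numbers per RefSeq transcript, for 31838 transcripts in 9 columns. The submitters' processing notes name STAR and DESeq2 without role or version. For the counting program, genome build, annotation, strand handling and reads shared by isoforms, the sources used here give nothing. A gene of the RefSeq annotation was found for 31673 transcripts, and the remaining 165 stayed as separate entries. Counts were summed per gene symbol. In R 4.3.3, edgeR 4.0.16 fitted all 9 libraries with group as the only term, after TMM scaling and filterByExpr (minimum count 10, minimum total 15), and the quasi-likelihood test gave the contrast glial minus neuronal. A call is a p under 0.05 after Benjamini-Hochberg adjustment over all genes tested. The standard error is the size of the log2 fold change divided by the square root of F. CPM are TMM-scaled counts per 1e+06. Exon sharing was read from the reference annotation on both strands, and 148 of the 422 called genes share exon bases with another gene, so their reads may be split. Intervals and the floor of 3 counts cover counting error only.

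The comparison, the 37 gene lists and the rule for naming genes were chosen with earlier results of these data known. By that rule 178 genes were eligible: Ube3a, w, elav and repo; the largest and the most abundant called differences; for each list up to 5 called members by p; members of runs; and called members of symbol families. Genes kept in every setting, and the groups said to be chosen after values were seen, were added outside the rule. Alternatives used limma 3.58.1 and DESeq2 1.42.0.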

Additional observations from a re-analysis of the deposited data

How the results depend on the processing

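The 422 calls became 243 with library totals (95 higher and 148 lower, 39.1% higher against 54.7%; the median of all genes moved to -0.15), 419 with DESeq2 size factors, 1013 with DESeq2, 436 with limma-voom, 369 without a low-count filter, 227 from the 6 libraries alone, 481 with the gut level as a term, 112 without glial 2 and neuronal 1, and 850 single transcripts. Leaving out 1 library gave 154 to 392. With the replicate number as a block there were 241 calls (131 higher, 110 lower). Same-numbered glial and neuronal libraries deviated from their group means with correlations of -0.108, -0.047 and 0.026. No library correlated best with its own number. Glial 1, 2 and 3 correlated best with neuronal 3, 1 and 2, at 0.302, 0.258 and 0.229. These values gave no sign that the numbers pair the samples, but deviations from means of 3 libraries cannot exclude it. The Ube3a call was kept in all 18 settings. Counts of 3 libraries a side limit what small differences can show, and low genes rest on few counts.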

Other observations

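Some genes varied widely between libraries of 1 line and were not called. CG16826 had 0.0915, 0.0818 and 0 CPM in the glial libraries, against 0.084, 375 and 109 CPM in the neuronal libraries and 0.0264, 140 and 12.3 CPM in the control. The lysozyme gene LysP had 0.183, 0 and 0.129 CPM in the glial line, against 0.462, 15.4 and 8.79 CPM in the neuronal line.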
